A study of Mus musculus with 12 samples.

Results

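The miR-30 family is a set of microRNAs (miRNAs), short RNAs that guide Argonaute proteins to messenger RNAs and lower their output. In the mouse cortex table described here, the family was taken as the 6 precursors named mmu-mir-30a, mmu-mir-30b, mmu-mir-30c-1, mmu-mir-30c-2, mmu-mir-30d and mmu-mir-30e, chosen by name, and all 6 of them were found among the 589 precursors listed. All 6 were above 0 in each of the 12 libraries, so no filter on low values removed a member. A miRNA finds its targets mainly through its seed, bases 2 to 8 of the mature strand, and the 5p strands of this family are known to share 1 seed. Messenger RNAs bound by miR-30 include Becn1, which starts the formation of autophagosomes, and Bdnf, a growth factor of neurons. The precursors lie as 3 pairs of genomic neighbours, and members of a pair are thought to be copied into 1 primary transcript.

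Small RNA was sequenced from the whole cerebral cortex of female C57BL/6J mice in 4 groups. WT mice and TLR4-KO mice, which lack the lipopolysaccharide receptor TLR4 in all cells of the body, drank water, and the groups WT + EtOH and TLR4-KO + EtOH drank water with 10% (v/v) ethanol for 5 months from an age of 7 weeks. Each group had 3 libraries, each made from 3 mice pooled together, which gives 9 mice in a group, and an SD here describes the spread between pools rather than between animals. The WT mice came from a supplier and the TLR4-KO mice from a separate mutant line, and effects of the line and of the missing receptor cannot be told apart. The comparisons ask how long-term ethanol changes cortical miRNAs, and whether the change depends on TLR4.

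The values are the normalized values deposited by the authors. They have no stated unit, reach the same maximum of 135 in every library and are not read counts, so differences below are in units of that scale and not folds, and the number of reads behind a value is unknown.

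The mature 5p strands are shown first because the shared seed defines the family and because the bases after it decide which members sequencing can tell apart. RefSeq (GRCm38.p6) gave mature sequences for 4 of the 6 members. The strands are written 5′ to 3′ with the seed in capitals.
mmu-miR-30a-5p: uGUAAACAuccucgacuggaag
mmu-miR-30e-5p: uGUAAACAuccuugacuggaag
mmu-miR-30c-5p: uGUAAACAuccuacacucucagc
The seed was the same in all 3 strands, and the first 12 bases were identical. Counted from the 5′ end of mmu-miR-30a-5p, mmu-miR-30e-5p differed at 1 position (C13U) and mmu-miR-30c-5p at 5 positions (C13A, G14C, G18C, G19U and A20C). Among the 1679 mature mouse names in the RefSeq set, 4 carried this seed, these 3 strands and mmu-miR-384-5p. The set gave no mature sequence for mir-30b and mir-30d, so this count leaves out their strands.

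Both mir-30c-1 and mir-30c-2 give the same mature 5p strand, so reads of mmu-miR-30c-5p cannot be assigned to 1 of the 2 precursors. Their 3p strands differ at 3 positions (G9A, U12C and C22U, mir-30c-1 first), in capitals here.
mmu-miR-30c-1-3p: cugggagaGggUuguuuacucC
mmu-miR-30c-2-3p: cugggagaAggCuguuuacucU
The 3p strands of mir-30a and mir-30e are almost the same as well, with 1 differing position (G18A), again in capitals.
mmu-miR-30a-3p: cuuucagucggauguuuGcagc
mmu-miR-30e-3p: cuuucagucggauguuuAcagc
The file gives 1 value per precursor, and how much of it came from each strand was not analysed here.

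The positions are those of the GENCODE M21 annotation of GRCm38. Mir30a lies at chr1:23272269-23272339 on the plus strand, where no other gene is annotated, and Mir30c-2 lies 19361 bases further along the same strand at chr1:23291701-23291784, within an exon of the long non-coding RNA Gm27028. Mir30c-1 (chr4:120769534-120769622) and Mir30e (chr4:120772606-120772697) lie on the minus strand, 2983 bases apart, both in introns of Nfyc, which encodes a subunit of the transcription factor NF-Y. Mir30b (chr15:68337415-68337510) and Mir30d (chr15:68341208-68341289) lie on the minus strand, 3697 bases apart. Mir30b partly overlaps an exon of Gm26621, and Mir30d lies within an exon of the long non-coding RNA Gm20732.

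The libraries carried the miRNAs of brain tissue. All 8 precursors of a neuronal list (miR-124, miR-9 and miR-128) were above 0 in all 12 libraries, and the liver miRNA mir-122 and the 2 of 5 listed muscle precursors that the table holds (mir-133a-1 and mir-133a-2) were at 0 in all of them. Of 4 white cell precursors, mir-223 was at 0 in all libraries, mir-155 was above 0 in 2, and mir-150 and mir-142a were above 0 in all 12. On the first principal component, which held 32% of the variance, the 3 WT libraries lay between -65.1 and -49.9 and the other 9 libraries between 3.60 and 83.5, with TLR4-KO replicate 1 at 83.5. The WT libraries therefore stood apart from the other 3 groups as a whole, and since they are a complete group, a technical difference of these libraries cannot be told apart from the group in any comparison with WT. In such bulk tissue, fewer cells of a type and less RNA per cell cannot be told apart either.

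The 6 members spanned a wide range of levels. Apart from the order of mir-30c-1 and mir-30c-2 between themselves, they held the same order in nearly every library. In order of the mean over the 12 libraries, with its SD, mir-30d stood at 108 ± 3.41, mir-30a at 95.8 ± 2.77, mir-30c-2 at 92.7 ± 1.95, mir-30c-1 at 92.6 ± 2.05, mir-30e at 77.1 ± 2.78 and mir-30b at 64.1 ± 4.34. Among the 589 precursors these means ranked 7, 15, 17, 18, 41 and 58. How the deposited scale treats the length of a precursor is not given in the sources used here, so the order is an order on this scale and not of molecules.

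Steps in this order differed in how far they exceeded the spread between libraries. In 12 of 12 libraries mir-30d was above mir-30a, by 11.9 ± 3.84 (SD, n = 12). The step from mir-30a to mir-30c-2 was 3.08 ± 3.45, smaller than its SD over the libraries. In 11 libraries mir-30a was above mir-30c-2, and it was below in 1, TLR4-KO + EtOH replicate 1. The 2 mir-30c precursors could not be separated, with a gap of 0.0794 ± 0.444. Their values were equal in 6 libraries and at most 0.674 (0.743%) apart in the other 6, and they share their 5p strand, so they are not independent measurements. Below them, mir-30c-1 exceeded mir-30e by 15.6 ± 3.61 and mir-30e exceeded mir-30b by 13.0 ± 2.94, each in 12 of 12 libraries.

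Most members also varied little. Among the 190 precursors above 0 in all 12 libraries, ranked from the smallest SD over the libraries, mir-30c-2 was at rank 5, mir-30c-1 at 7, mir-30a at 21, mir-30e at 22, mir-30d at 43 and mir-30b at 89. The median SD of the 190 was 4.51, which is above the SD of each member, and mir-30b came nearest to it. On a scale with shared levels, precursors near the top have less room to vary, and this was not adjusted for.

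**Figure D1:**
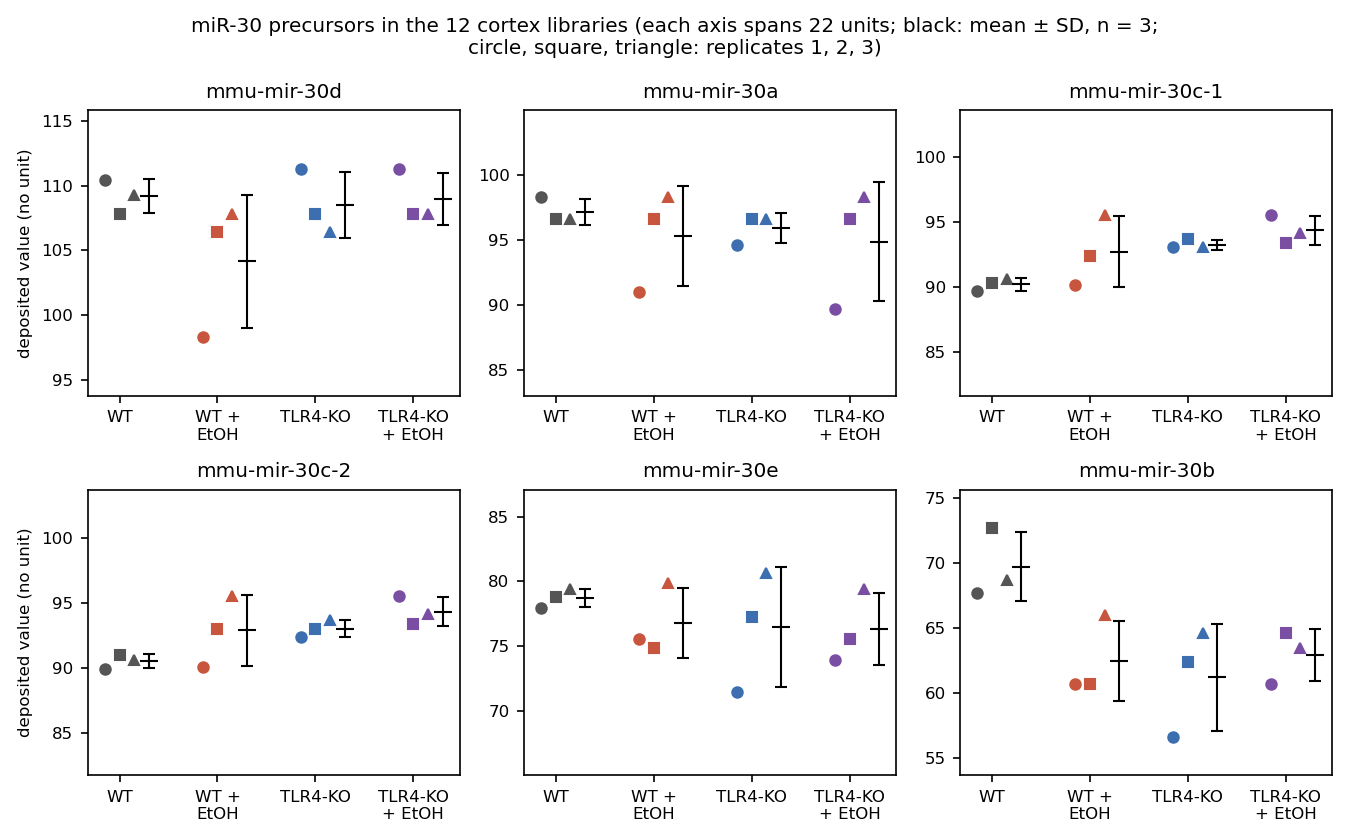
Deposited values (no unit, y axis, each spanning 22 units) of the 6 miR-30 precursors in the 4 groups (x axis), with a circle, square and triangle for replicates 1, 2 and 3 and a black bar for mean ± SD (n = 3). The 3 WT values of mir-30b, 67.7 to 72.7, lie above all 9 other values, and both mir-30c panels have their lowest values in WT.

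In the cortex of ethanol-treated wild-type mice, mir-30b was the member with the largest difference from WT. It was lower by 7.23 units, and its values did not overlap between the groups, but the difference did not pass the test over all precursors. No member was called in this comparison, where a call is an adjusted p under 0.05 (limma, Benjamini-Hochberg over 589 precursors). Of all precursors 1.70% were called, 10 of 589. Of the 589, 265 were at 0 in all libraries and could not be called, which lowers this share and the later shares of 589.

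Values of mir-30b were 67.7, 72.7 and 68.7 in WT replicates 1, 2 and 3 (69.7 ± 2.67, SD, n = 3). They were 60.7, 60.7 and 66.0 in WT + EtOH (62.5 ± 3.08). Every WT + EtOH library was thus below every WT library. The difference was -7.23 (SE 2.46, 95% interval -12.9 to -1.59, limma adjusted p = 0.244). Its size ranked 45 among the 190 precursors above 0 in all libraries.

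Its genomic neighbour mir-30d, the highest member, had the second largest difference, and here 1 library decided the size. Values of mir-30d were 110.4, 108 and 109 in WT (109 ± 1.34) and 98.3, 106 and 108 in WT + EtOH (104 ± 5.12). The groups overlapped, and replicate 1 of WT + EtOH was far below the others. The difference was -5.03 (SE 2.49, 95% interval -10.7 to 0.668, limma adjusted p = 0.518), and it was -2.10 without that library.

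The 2 mir-30c precursors had higher mean values with ethanol. Values of mir-30c-1 were 89.7, 90.3 and 90.7 in WT (90.2 ± 0.499) and 90.1, 92.4 and 95.6 in WT + EtOH (92.7 ± 2.73), a difference of 2.50 (95% interval -0.277 to 5.27, limma adjusted p = 0.503). For mir-30c-2 they were 90.0, 91.0 and 90.7 in WT and 90.1, 93.1 and 95.6 in WT + EtOH, a difference of 2.39 (limma adjusted p = 0.527). In both, the highest value was in WT + EtOH replicate 3 and the groups overlapped. Without that library each difference was 1.06, and without WT + EtOH replicate 1 each was 3.78.

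The remaining members, mir-30a and mir-30e, had overlapping groups. Values of mir-30a were 98.3, 96.6 and 96.6 in WT and 91.0, 96.6 and 98.3 in WT + EtOH, a difference of -1.86 (95% interval -7.51 to 3.78). Values of mir-30e were 78.0, 78.8 and 79.4 in WT and 75.6, 74.8 and 79.9 in WT + EtOH, a difference of -1.96 (95% interval -7.54 to 3.61). As for mir-30d, the low value of mir-30a was in WT + EtOH replicate 1. Both limma adjusted p-values were 1.

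Across the family, 4 members had lower and 2 higher means in WT + EtOH, with a median difference of -1.91 against 0.306 over the 190 precursors above 0 in all libraries. The median size of the difference, ignoring its sign, was 2.44 for the members and 4.54 for the 190. An unadjusted p under 0.05 was reached by 1 member (mir-30b), beside 32.1% of the 190. Groups did not overlap for 1 member, beside 41.1% of the 190. Neither share was above its background.

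**Figure D2:**
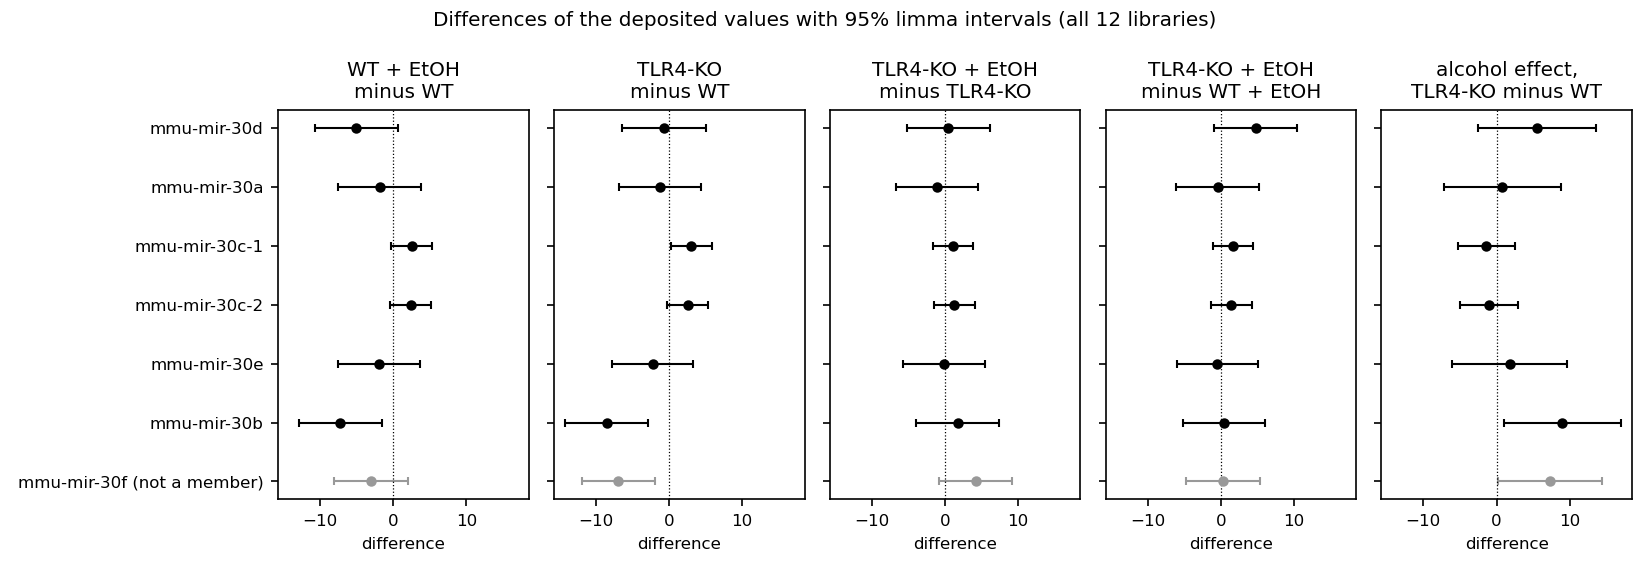
Differences in the deposited values (x axis, no unit) with 95% limma intervals for the 6 members (black) and mir-30f (grey) in the 4 comparisons of groups and in the ethanol difference of TLR4-KO less that of WT (last panel), all 12 libraries in 1 fit. For mir-30b the interval lies below 0 in both comparisons with WT, and no member passed the test after adjustment.

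The TLR4-KO cortex without ethanol was also compared with WT, and it shares the WT libraries with the comparison above, so the results are not independent. Again mir-30b had the largest difference among the members, lower by 8.53 units, and the 2 mir-30c precursors were higher by about 3 units. No member was called by limma after the Benjamini-Hochberg adjustment, and 2.55% of all precursors were, 15 of 589.

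Values of mir-30b in TLR4-KO were 56.6, 62.3 and 64.6 (61.2 ± 4.14), all below the 3 WT values. The difference was -8.53 (SE 2.46, 95% interval -14.2 to -2.89, limma adjusted p = 0.139), the size of which ranked 31 among the 190. Replicate 1, the library farthest out on the first principal component, was lowest, and without it the difference was -6.23 (limma adjusted p = 0.348). With eBayes run with a trend and robust settings, mir-30b was called (limma adjusted p = 0.0403), and over 18 alternative settings its adjusted p ran from 0.0403 to 0.378.

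Together with mir-30b, the red cell miRNA mir-451a separated WT from the other libraries, at 46.3 to 50.2 in WT and 31.7 to 36.0 in WT + EtOH. In TLR4-KO the corresponding values were 26.3 to 33.8, and with ethanol 24.5 to 31.9. It fell by 14.6 in WT + EtOH and by 17.6 in TLR4-KO against WT (limma adjusted p = 0.0346 and 0.00948). The other red cell precursors did not share this pattern. Of the 4 listed, 3 were above 0 in all libraries and mir-144, a defining one, was above 0 in 3 of 12. Values of mir-486b were 89.7 to 92.4 in WT and higher in WT + EtOH (96.6 to 102) and TLR4-KO (98.3 to 102), with 92.4 to 102 in TLR4-KO + EtOH, and those of mir-486a overlapped throughout. The summed level of the list ran from 241 to 256 in WT and 243 to 247 in WT + EtOH. In TLR4-KO the corresponding values were 231 to 244, and with ethanol 219 to 241. For a choroid plexus list, with 2 of the 4 precursors in the table above 0 in all libraries, the sums were 126 to 162, 100.0 to 116, 107 to 140.0 and 101 to 110 in the same order of groups. White cell and oligodendrocyte sums in WT, 112 to 115 and 42.8 to 45.6, lay inside the span of the other groups (105 to 130 and 29.2 to 67.9). Within the white cell list, mir-150 also separated WT from the rest, at 68.7 to 69.7 in WT and 74.1 to 81.1 in the other 9 libraries, and it rose by 7.41 in WT + EtOH and by 9.28 in TLR4-KO against WT (limma adjusted p = 0.0444 and 0.00958). Within the neuronal list, mir-9-1, mir-9-2 and mir-9-3 were higher in WT, at 93.4 to 94.6 against 83.7 to 90.1 in the other 9 libraries. By contrast, mir-128-1 was lower in WT, at 58.3 to 65.6 against 67.7 to 72.7. The mir-124 precursors and mir-128-2 did not separate WT from the rest, and no neuronal precursor was called by limma in any comparison. The part of these cell types in the miR-30 values was not tested.

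The mir-30c precursors were the members with non-overlapping groups in the other direction. Values of mir-30c-1 were 93.1, 93.7 and 93.1 in TLR4-KO (93.3 ± 0.389), all above the WT values, a difference of 3.06 (SE 1.21, 95% interval 0.286 to 5.83, limma adjusted p = 0.349). For mir-30c-2 they were 92.4, 93.1 and 93.7 (93.1 ± 0.655), a difference of 2.53 (SE 1.23, 95% interval -0.281 to 5.34, limma adjusted p = 0.480). The spread within both groups was under 1 unit. When the fit held the libraries of these 2 groups alone, mir-30c-1 was called (limma adjusted p = 0.0365), and over 18 alternatives its adjusted p ran from 0.0365 to 0.681.

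For mir-30a, mir-30d and mir-30e, TLR4-KO overlapped WT. Values of mir-30a were 94.6, 96.6 and 96.6, with a difference of -1.24 (95% interval -6.89 to 4.40). Values of mir-30d were 111, 108 and 106, with a difference of -0.696 (95% interval -6.39 to 5.00). Values of mir-30e were 71.5, 77.3 and 80.6, with a difference of -2.25 (95% interval -7.83 to 3.32). The low mir-30e value was in TLR4-KO replicate 1, and without that library the difference was 0.231. All 3 limma adjusted p-values were 1.

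In this comparison 4 members were lower and 2 higher, with a median difference of -0.969 against 0.555 over the 190, and a median size of 2.39 against 4.85. An unadjusted p under 0.05 was reached by 2 members (mir-30b and mir-30c-1), beside 29.5% of the 190. Groups did not overlap for 3 members (mir-30b, mir-30c-1 and mir-30c-2), beside 41.1% of the 190, and 2 of these 3 share a mature strand. Both shares were near their background for a set of 6.

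Ethanol in TLR4-KO mice went with small differences in all 6 members, and the values of TLR4-KO + EtOH overlapped those of TLR4-KO for each of them. No member was called, and 0.340% of all precursors were, 2 of 589 (limma, Benjamini-Hochberg). No member had an unadjusted p under 0.05, beside 10.5% of the 190 precursors, or groups that did not overlap, beside 10.5% as well.

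Values of mir-30b were 60.7, 64.6 and 63.5 in TLR4-KO + EtOH (62.9 ± 2.01), within the range of TLR4-KO, and the difference was 1.75 (95% interval -3.89 to 7.39). The mir-30c precursors were at 95.6, 93.4 and 94.2 in TLR4-KO + EtOH, the same value for both in each library. Their differences were 1.10 for mir-30c-1 (95% interval -1.67 to 3.87) and 1.31 for mir-30c-2 (95% interval -1.50 to 4.12). All limma adjusted p-values of the members were 1 here. Differences above 7.39 or below -3.89 units for mir-30b lie outside its interval, as do those above 4.12 or below -1.50 units for mir-30c-2. Differences within these bounds could not be resolved with 3 pools per group.

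Values of mir-30d were 111, 108 and 108, a difference of 0.464 (95% interval -5.23 to 6.16). Those of mir-30a were 89.7, 96.6 and 98.3, a difference of -1.06 (95% interval -6.71 to 4.59), with replicate 1 lowest among all 12 libraries. Those of mir-30e were 74.0, 75.6 and 79.4, a difference of -0.154 (95% interval -5.73 to 5.42). The median difference of the members was 0.782 against 0 over the 190, and the median size was 1.08 against 2.38.

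Between the 2 ethanol groups, TLR4-KO + EtOH and WT + EtOH, no member was called, and 0.509% of all precursors were, 3 of 589 (limma, Benjamini-Hochberg). Here mir-30d had the largest difference of the members, 4.80 (SE 2.49, 95% interval -0.900 to 10.5, limma adjusted p = 1), with overlapping groups. Without WT + EtOH replicate 1 it was 1.87, and that of mir-30a, then larger in size, was -2.59. The other 5 differences ran from -0.447 (mir-30e) to 1.66 (mir-30c-1), and mir-30b differed by 0.454 (95% interval -5.19 to 6.09). No member had an unadjusted p under 0.05 or groups that did not overlap, beside 6.32% and 6.84% of the 190. The median difference was 0.953 against 0.0208 over the 190.

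Whether the ethanol difference depended on the genotype was tested as a difference of differences, the ethanol difference within TLR4-KO less the one within WT. No member was called, and 1.19% of all precursors were, 7 of 589. The largest value among the members was that of mir-30b, 8.98 (SE 3.48, 95% interval 1.003 to 17.0, limma adjusted p = 0.337), made up of -7.23 in WT and 1.75 in TLR4-KO. Over 17 alternatives its adjusted p ran from 0.157 to 0.580.

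For mir-30d this difference of differences was 5.49 (95% interval -2.56 to 13.6, limma adjusted p = 0.763), and 2.57 without WT + EtOH replicate 1. For the other 4 members it lay between -1.40 (mir-30c-1) and 1.81 (mir-30e), each with a limma adjusted p of 1. An unadjusted p under 0.05 was reached by 1 member (mir-30b), beside 30.5% of the 190. The median was 1.31 for the members against 0.261 for the 190, and the median size 1.60 against 5.78.

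Members that are genomic neighbours were then set against each other within each library, since a difference inside a library does not move with a shift shared by both. Of the 12 differences tested (3 pairs, 4 comparisons of groups), none passed a two-sided exact permutation test. With 3 libraries against 3, such a test cannot give a p below 0.1, and the smallest value after the Benjamini-Hochberg adjustment was 0.3.

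The gap from mir-30c-1 to mir-30e, the pair inside Nfyc, was nearly constant in WT, at 11.7, 11.5 and 11.3 (11.5 ± 0.219). It was wider in WT + EtOH, at 14.6, 17.6 and 15.7 (15.9 ± 1.53), and in TLR4-KO, at 21.6, 16.5 and 12.4 (16.8 ± 4.58). Both groups lay above WT without overlap, by 4.46 and 5.31, each with an exact permutation p of 0.1 (adjusted 0.3). The second of these was 2.94 without TLR4-KO replicate 1 and 7.51 without TLR4-KO replicate 3. In TLR4-KO + EtOH the gap was 21.6, 17.8 and 14.8 (18.1 ± 3.42), which overlapped TLR4-KO and WT + EtOH. The 3 WT libraries had the smallest gaps of all 12.

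For the chromosome 1 pair, mir-30a stood above mir-30c-2 by 8.36, 5.59 and 5.93 in WT (6.62 ± 1.51). The gap was 0.854, 3.53 and 2.73 in WT + EtOH (2.37 ± 1.37) and 2.17, 3.53 and 2.86 in TLR4-KO (2.85 ± 0.682). Both lay below WT without overlap, with differences of -4.25 and -3.77, each with an exact permutation p of 0.1 (adjusted 0.3). This gap and the gap from mir-30c-1 to mir-30e each contain a mir-30c value. Since the mir-30c precursors are not independent measurements, the results of these pairs are not independent either. In TLR4-KO + EtOH it was -5.91, 3.19 and 4.16 (0.481 ± 5.55), a spread set by replicate 1.

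The chromosome 15 pair had overlapping groups throughout. The gap from mir-30d to mir-30b was 42.8, 35.1 and 40.7 in WT and 37.6, 45.7 and 41.8 in WT + EtOH. In TLR4-KO the corresponding values were 54.7, 45.5 and 41.8, and with ethanol 50.6, 43.2 and 44.3. The lowest mean was 39.5 ± 3.98 in WT and the highest 47.3 ± 6.67 in TLR4-KO, with exact permutation p-values from 0.2 to 0.8. The difference between these means was 7.83, and 4.13 without TLR4-KO replicate 1.

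**Figure D3:**
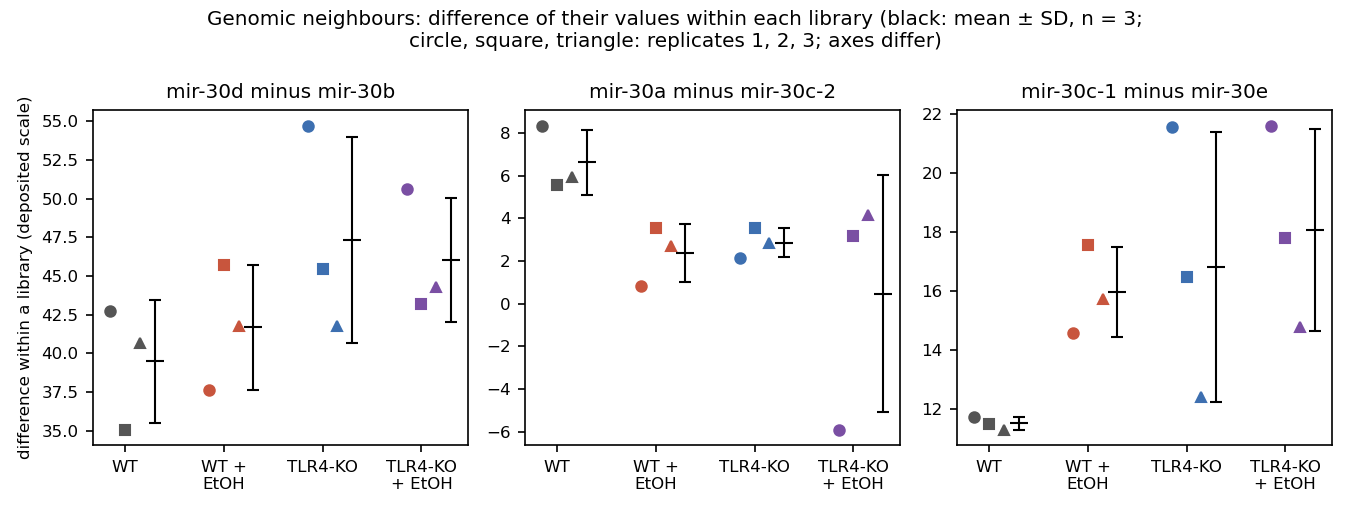
Difference between genomic neighbours within a library (y axis, units of the deposited scale, ranges differ between panels) in the 4 groups (x axis), with circle, square and triangle for replicates 1, 2 and 3 and black bars for mean ± SD (n = 3). The WT points of mir-30c-1 minus mir-30e lie between 11.3 and 11.7, below all other points, and those of mir-30a minus mir-30c-2 lie above all others.

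The precursor mir-30f bears the family name but was not among the 6. It is annotated at the position of mir-30e on the opposite strand, and its mature RNA is shown because it nearly repeats the start of the family's 5p strand, with the shared run in capitals.
mmu-miR-30f: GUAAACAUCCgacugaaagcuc
The run of 10 bases begins at base 1 here and at base 2 of mmu-miR-30e-5p, so that the seed of mir-30f is shifted by 1 base, to UAAACAU, which no other name in the RefSeq set carried. Its mature RNA also overlaps the position of mmu-miR-30e-3p on the other strand by 19 bases, and whether the counting used strand is not given in the sources used here, so its values and those of mir-30e are uncertain. Values of mir-30f were 62.0, 63.0 and 60.7 in WT and 56.1, 61.0 and 59.3 in WT + EtOH. In TLR4-KO the corresponding values were 51.1, 55.1 and 58.8, and with ethanol 55.9, 60.9 and 60.7. TLR4-KO lay below WT without overlap, with a difference of -6.93 (95% interval -12.0 to -1.89, limma adjusted p = 0.170), and the groups overlapped for mir-30e. The ethanol difference in TLR4-KO less that in WT was 7.29 (limma adjusted p = 0.372).

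The other carrier of the family's seed, mir-384, was added for its sequence after the values were known. It was lower on this scale than any member, at 41.3, 41.8 and 37.0 in WT and 19.5, 24.0 and 29.6 in WT + EtOH. In TLR4-KO the corresponding values were 30.3, 37.8 and 33.8, and with ethanol 52.7, 41.0 and 38.8. The 2 ethanol groups lay on opposite sides of their controls, with a difference of -15.7 from WT (95% interval -25.0 to -6.44, limma adjusted p = 0.120) and of 10.2 from TLR4-KO (95% interval 0.934 to 19.5, limma adjusted p = 0.659). The ethanol difference in TLR4-KO less that in WT was 25.9 (SE 5.72, 95% interval 12.8 to 39.0, limma adjusted p = 0.0713). Neither this nor any other comparison of mir-384 passed the test. Its difference between the 2 ethanol groups, 19.8 (limma adjusted p = 0.156), was the largest among the 190 precursors above 0 in all libraries.

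The mean of the 6 members moved by a few units between libraries, from 84.3 in WT + EtOH replicate 1 to 90.5 in WT + EtOH replicate 3, both in 1 group. The WT libraries were at 89.0, 89.5 and 89.2, the TLR4-KO libraries at 86.6, 88.5 and 89.2 and the TLR4-KO + EtOH libraries at 87.8, 88.6 and 89.5. Among the 182 other precursors that were above 0 in all libraries and not at 1 constant value, those most like this mean were mir-126b (Spearman rho 0.844 over 12 libraries), mir-126a (0.841), mir-16-1 (0.820), mir-26a-2 (0.801) and mir-16-2 (0.799). The hairpin of mir-126 lies in an intron of Egfl7 and is known from endothelial cells, and mir-16-1 and mir-16-2 give the same mature 5p strand. The libraries share their normalization, the 12 points include the 3 WT libraries that stood apart, and the rank correlations are descriptions. Within each group, mir-126a and mir-126b rose in the order of the replicate numbers, as the members' mean did in every group but WT. The part of the replicate number in these correlations was not tested. None of the 5 passed the limma test in any comparison. For mir-126a the mean was 61.2 ± 1.68 in WT and 54.6 ± 3.31 in WT + EtOH. In TLR4-KO the corresponding values were 55.8 ± 3.28, and with ethanol 55.8 ± 3.95.

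**Figure D4:**
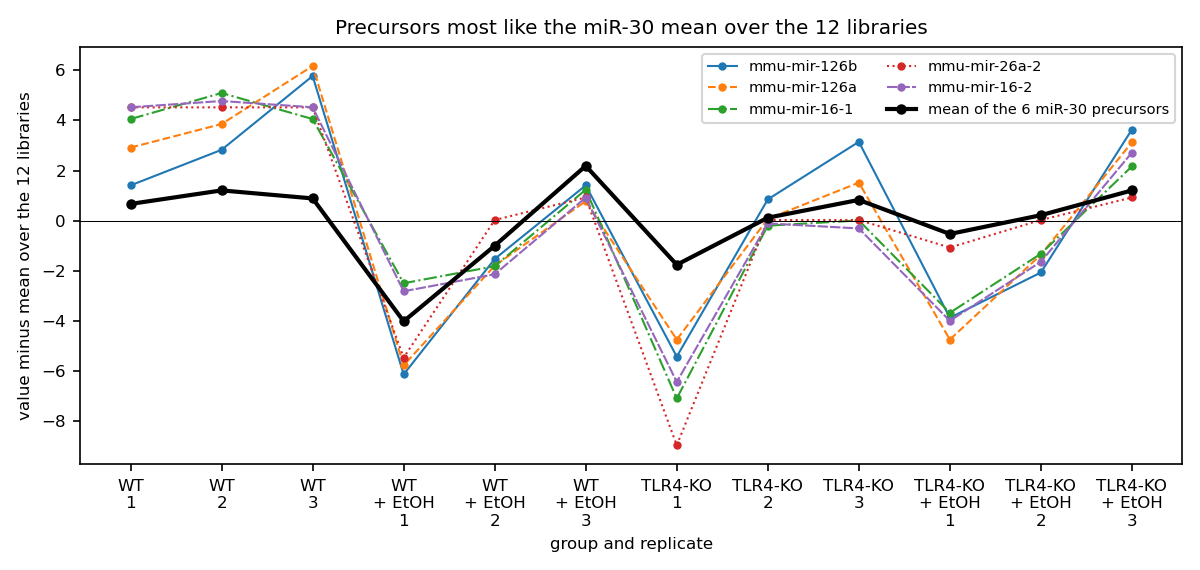
Mean of the 6 miR-30 precursors (black) and the 5 precursors with the highest rank correlation with it, each as the deposited value minus its own mean over the 12 libraries (y axis, no unit), by group and replicate (x axis). The miR-30 mean dips most in WT + EtOH replicate 1, at 84.3 before centring, while mir-126a, mir-126b, mir-16-1, mir-16-2 and mir-26a-2 are all above their own means in the 3 WT libraries.

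For comparison, the miR-26 family, encoded in introns of protein-coding genes, had all 3 precursors below WT without overlap. The differences of mir-26a-1, mir-26a-2 and mir-26b were -6.12, -5.99 and -10.97 in WT + EtOH and -7.19, -7.46 and -12.0 in TLR4-KO. None was called, the smallest limma adjusted p being 0.0709 for mir-26b in TLR4-KO against WT. Of the 4 miR-29 precursors, mir-29b-1 was at 0 in all 12 libraries and mir-29c ran up to 34.1, so that this family sat below all miR-30 members. Whether the families differ in their response was not tested.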

How the data were processed

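The members and all lists were chosen with earlier results of these data known, and mir-384 was added for its seed. According to the methods and the submitters' processing notes, the authors checked reads with FastQC 0.11.6, trimmed adapters with cutadapt, mapped with Bowtie2 2.2.5 and TopHat (GRCm38), counted reads and normalized them by the trimmed mean of M values. The deposited table holds 1 score per precursor and library (589 precursors, 265 never above 0, 324 above 0 in some library), with shared levels as after quantile normalization. Depth is not in this file, so no count model and no floor on counts was used, and the intervals given are limma intervals on the deposited scale.

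Differences were tested with limma 3.58.1 under R 4.3.3 (default eBayes, two-sided, 1 mean per group, all 12 libraries, total degrees of freedom 8.31), with Benjamini-Hochberg adjustment over 589 precursors and a threshold of 0.05. The script was tested on simulated data. Exact permutation tests compared genomic neighbours. Besides the 6 members, mir-30f, the 5 precursors with the highest Spearman rho to the members' mean and the miR-26 and miR-29 families were named. Alternatives were quantile normalization, centring each library on its median, a filter that kept the 285 precursors detected in 3 or more libraries, a fit of the groups compared alone, the replicate number as a block, eBayes with trend and robust settings, and leaving out each library. No libraries were identical (correlations 0.911 to 0.991). Figures were drawn with matplotlib 3.10.9 in Python 3.11.15 with pandas 2.3.3 and numpy 2.4.6.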

Additional observations from a re-analysis of the deposited data

How the results depend on the processing

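With 3 pools per group and no read counts, the member intervals reached 2.77 to 5.70 units to either side in the comparisons of groups and 3.92 to 8.06 in the difference of the alcohol effects, and smaller differences could not be resolved. The number of members called in TLR4-KO against WT became 1 with only the groups compared (mir-30c-1) and 1 with trend and robust eBayes settings (mir-30b), and it was 0 in every other setting and comparison run. Outside the leave-one-out fits, no member difference reversed, 172 kept their direction and side of the threshold, and 2 passed it. Of these settings, only quantile normalization and centring could move a difference. The filter, the fit of the groups compared alone, the replicate block and the trend and robust settings leave it as it is and change its SE. Leaving out 1 library reversed 25 member differences, kept 335 and called none. A library outside the groups compared leaves their difference unchanged, so part of the 335 could not reverse. The ranges were, for mir-30a, -3.37 to 0.288 (WT + EtOH against WT), -2.79 to 1.53 (TLR4-KO + EtOH against TLR4-KO), -2.59 to 2.15 (against WT + EtOH) and -1.35 to 3.39 (difference of the alcohol effects). For mir-30b they were -0.546 to 3.47 (TLR4-KO + EtOH against TLR4-KO) and -0.434 to 2.23 (against WT + EtOH). For the difference of the alcohol effects they were -2.68 to 0.0399 (mir-30c-1) and -2.47 to 0.252 (mir-30c-2). For mir-30d they were -2.10 to 0.356 (TLR4-KO against WT) and -0.711 to 1.87 (TLR4-KO + EtOH against TLR4-KO). For mir-30e they were -4.34 to 0.231, -2.64 to 1.93, -1.98 to 1.10 and -0.677 to 3.90 (TLR4-KO against WT, TLR4-KO + EtOH against TLR4-KO, against WT + EtOH, and difference of the alcohol effects). Neighbour gaps also reversed, mir-30d minus mir-30b at -0.0186 to 4.24 (WT + EtOH against WT) and -4.06 to 2.42 (TLR4-KO + EtOH against TLR4-KO), mir-30a minus mir-30c-2 at -4.21 to 0.823 (TLR4-KO + EtOH against TLR4-KO) and -3.73 to 1.30 (against WT + EtOH), and mir-30c-1 minus mir-30e at -0.947 to 3.63 (TLR4-KO + EtOH against TLR4-KO). The cause was not tested.

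Counts over all precursors, in the order of the report's 5 contrasts, were 10, 15, 2, 3 and 7. They were 21, 31, 3, 3 and 13 with the filter on 3 libraries, 18, 31, 3, 1 and 9 with trend and robust settings, 10, 14, 0, 1 and 6 after quantile normalization, and 7, 13, 0 and 0 with the groups compared alone. With 1 library left out they ran from 4 to 18, 11 to 22, 0 to 4, 0 to 3 and 2 to 15. Same-numbered libraries deviated together in part (18 pairs, r from -0.109 to 0.153, 10 over 0.1, and 6 of 12 libraries correlated best with their own number). Since not every pair was over 0.1 and no label ties the numbers to a shared batch, the numbers were not taken to pair the samples. With the replicate number as a block, 0 members were called in each contrast and 13, 24, 3, 2 and 3 of all precursors. In the comparisons of groups the SE went from 2.43 to 1.51 for mir-30e and from 2.46 to 1.85 for mir-30b. The limma adjusted p of mir-30b with this block was 0.06575 in TLR4-KO against WT and 0.1155 in WT + EtOH against WT. Quantile normalization moved the median difference of the 190 by -0.153 in WT + EtOH against WT, and centring moved it by -0.101 in TLR4-KO against WT and 0.114 in the difference of the alcohol effects.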
